A study of Mus musculus with 8 samples.

Results

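The genes of the oxidative phosphorylation system were followed in orbital frontal cortex, the part of the prefrontal cortex above the eye sockets, by RNA sequencing of 8 libraries. Members were all genes whose name begins with one of the subunit or assembly-factor stems of the 5 respiratory complexes (mt-Nd, mt-Co, mt-Cytb, mt-Atp, Nduf, Sdha to Sdhd, Uqcr, Cox4 to Cox8 and Atp5), and 102 of the 13130 deposited genes carried such a name. Of these, 13 are encoded by mitochondrial DNA and 89 by the nuclear genome, and all 102 had a mean of at least 0.5 FPKM (fragments per kilobase of gene model, scaled to the mapped fragments of a library) and were tested. Members of the chain with other names, such as Cyc1, fall outside this rule. Ndufa4 and Ndufa4l2 were counted with complex IV, where the Ndufa4 protein is now placed, and the 8 Ndufaf genes were kept apart as assembly factors.

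The knockdown group held 4 libraries from C57BL/6 mice aged 12 weeks whose treatment was short hairpin RNA named against circHomer1 and Homer1b. The control group held 4 libraries from mice of the same strain and age given a scrambled hairpin. The labels do not say how the hairpins were delivered, which cells received them, or whether the libraries stem from different animals. The p-values therefore reflect library-to-library spread, which may be technical. Markers of cortical excitatory neurons were present in every library, with a summed level of 463 to 575 FPKM over 9 genes in knockdown libraries and 450 to 561 FPKM in control libraries.

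Complexes I to IV pass electrons from NADH or succinate to oxygen through ubiquinone and cytochrome c, and complexes I, III and IV pump protons out of the mitochondrial matrix as they do so. Complex V, the ATP synthase, uses the returning protons to make ATP. Most subunits are made in the cytosol from nuclear genes and imported, whereas a core of hydrophobic subunits of complexes I, III, IV and V is transcribed from mitochondrial DNA as long precursor RNAs that are cut at the transfer RNAs lying between genes. Complex II is wholly nuclear-encoded. Neurons depend on this system for most of the ATP that ion pumps and synapses consume.

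In places the mitochondrial genes overlap without a transfer RNA between them, and these stretches are shown because reads from them belong to both genes. On mouse GRCm38, mt-Atp8 and mt-Atp6 share 43 bases at chrM:7927-7969 on the plus strand, and mt-Nd4l and mt-Nd4 share 7 bases at chrM:10167-10173 on the plus strand. The capitals mark the start codon of the downstream gene, read from the GRCm38 genome.
mt-Atp8 and mt-Atp6: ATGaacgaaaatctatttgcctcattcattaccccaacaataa
mt-Nd4l and mt-Nd4: ATGctaa
A further 14 bases at chrM:13552-13565 are shared by mt-Nd5 on the plus strand and mt-Nd6 on the minus strand. How reads in such stretches, or reads matching nuclear copies of mitochondrial DNA, were divided is not given in the sources used here.

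Among nuclear members the promoters of genes whose libraries separated by group are shown, since this class of promoter is known for short GC-rich motifs bound by NRF1, by ETS-family factors such as GABP, and by YY1. The windows run from 250 bases before to 50 bases after the annotated start on GRCm38.p6, from RefSeq, and capitals mark matches on either strand to the ETS motif CCGGAAG, the YY1 motif AAGATGGCG or the NRF1 motif GCATGCGC. They lie at chr11:120098684-120098983 on the plus strand, chr19:7217567-7217866 on the minus strand and chr2:174464052-174464351 on the minus strand.
Ndufaf8: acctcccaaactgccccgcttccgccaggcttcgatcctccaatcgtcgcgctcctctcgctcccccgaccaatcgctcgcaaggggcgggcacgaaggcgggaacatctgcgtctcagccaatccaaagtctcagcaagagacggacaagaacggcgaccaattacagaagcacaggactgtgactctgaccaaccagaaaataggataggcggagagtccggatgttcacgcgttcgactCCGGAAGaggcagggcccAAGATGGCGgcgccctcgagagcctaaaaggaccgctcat
Cox8a: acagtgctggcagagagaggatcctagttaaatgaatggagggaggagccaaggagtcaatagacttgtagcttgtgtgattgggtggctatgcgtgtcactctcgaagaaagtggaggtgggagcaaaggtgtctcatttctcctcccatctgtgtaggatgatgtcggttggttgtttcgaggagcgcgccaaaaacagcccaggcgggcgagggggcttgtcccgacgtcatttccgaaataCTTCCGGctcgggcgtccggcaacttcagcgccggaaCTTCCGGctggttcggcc
Atp5e: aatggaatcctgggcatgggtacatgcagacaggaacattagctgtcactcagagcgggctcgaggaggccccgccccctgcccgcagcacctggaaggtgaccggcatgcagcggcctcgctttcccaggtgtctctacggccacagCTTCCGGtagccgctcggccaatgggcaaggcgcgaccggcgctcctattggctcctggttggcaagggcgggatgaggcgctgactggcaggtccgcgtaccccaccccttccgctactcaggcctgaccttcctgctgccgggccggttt
The Ndufaf8 window holds an ETS match just before the start and a YY1 match just after it, the Cox8a window holds 2 ETS matches around the start, and the Atp5e window holds 1 ETS match further upstream. Of the other members without overlap, Ndufb7 held an ETS match, Uqcr11 an ETS and an NRF1 match, and the windows of Cox5b and Ndufaf3, which are not shown, held none of these letters. Uqcrq was not searched.

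Of the 89 nuclear members, 72 had a RefSeq window. The ETS letters stood in 18 of these 72 windows (25.0%), against 19.0% of the 10143 genes of the deposited table that had a window and 9.93% of all 27025 genes in the RefSeq promoter table. The NRF1 letters stood in 12 of 72 (16.7%), against 5.93% of deposited and 3.05% of all genes, and the YY1 letters in 8 of 72 (11.1%), against 3.47% of deposited and 1.64% of all genes. Both strands were searched, and matches of the ETS and YY1 motifs can overlap by the letters AAG. These matches describe the sequence and were not related to any difference between the groups.

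No member differed between knockdown and control at an adjusted p under 0.05 by limma over 13004 genes. The same was true of every gene tested (0.0% called). The lowest adjusted p among members was 0.266. At an unadjusted p under 0.05, 9 of 102 members (8.82%) were higher in knockdown libraries and 0 were lower, where the shares over all genes were 9.1% higher, 5.07% lower and 14.2% either. The 9 were Ndufa2, Ndufs7, Ndufaf3, Ndufaf8, Uqcr10, Uqcrq, Cox5b, Cox8a and Atp5e, all nuclear-encoded. In 8 members all knockdown libraries lay above all control libraries (7.84%, against 5.93% of all genes), and in 0 members all lay below (3.22% of all genes). The share of members on the higher side was therefore near that of all genes, and the lower side was empty at this threshold.

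These counts depended on which libraries were kept. Without control library 1 the number of members higher at unadjusted p under 0.05 was 4, without control library 2 it was 5, without knockdown library 4 it was 5, and without knockdown library 3 it was 15. The number of members without overlap on the higher side was 19 without knockdown library 3 and 14 without control library 4. Leaving out a library can only keep or raise that number, and the share over all genes is not given for these fits. Over all genes, the number at unadjusted p under 0.05 in either direction moved too, from 1842 as reported to between 1199 and 2174 without 1 library. With GC content and length trends removed from each library the 2 counts were 5 and 3, again without the share over all genes. With a striatal marker score as a covariate, 2 members were higher at unadjusted p under 0.05. Control libraries 1 to 3 scored 0.397 or more, knockdown libraries 0.284 or less, and control library 4 -0.633. The score thus partly follows the groups, and this fit cannot separate striatal content from group. The share over all genes is not given for it. The same limit holds for every value given with this score. Removing the GC content and length trends lowered the log2 difference of Cox8a to 0.0578, of Ndufs7 to 0.0442, of Ndufaf3 to 0.0787 and of Uqcr10 to 0.088. With the striatal score, Ndufb7 stood at 0.0605, Cox8a at 0.1, Uqcrq at 0.093 and Uqcr10 at 0.093. Without knockdown library 4, Ndufb7 stood at 0.0649 and Atp5e at 0.14.

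By sign alone, 72 of 102 members (70.6%) had a log2 difference above 0, against 54.9% of all genes tested. Members are short, with a median merged exon length of 1498 bases against 4529 bases over all genes. Of all genes up to 1217 bases 76.8% lay above 0, of longer genes up to 2147 bases 71.1%, and of genes beyond that 51.9%. All differences are knockdown minus control means of log2(FPKM + 1). The median over all members was 0.043, and that over all genes was 0.015. Median log2 differences were 0.029 over the 13 mitochondrially encoded members and 0.045 over the 89 nuclear members. By complex, the nuclear medians were 0.043 for complex I, 0.027 for its assembly factors, 0.053 for complex II, 0.044 for complex III, 0.052 for complex IV and 0.019 for complex V. The mitochondrial medians were -0.005 for complex I, 0.029 for complex III, 0.077 for complex IV and 0.005 for complex V. In every one of these groups the median deviations of knockdown and control libraries overlapped. These medians are small and moved with the libraries kept. Without knockdown library 4 the median was -0.007 for the mitochondrial members, 0.02 for all nuclear members, 0.009 for nuclear complex I and -0.003 for nuclear complex V. Without control library 4 the mitochondrial median was -0.019. With the striatal score as a covariate, nuclear complex I stood at -0.006, and with GC content and length trends removed nuclear complex III stood at -0.001.

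**Figure D1:**
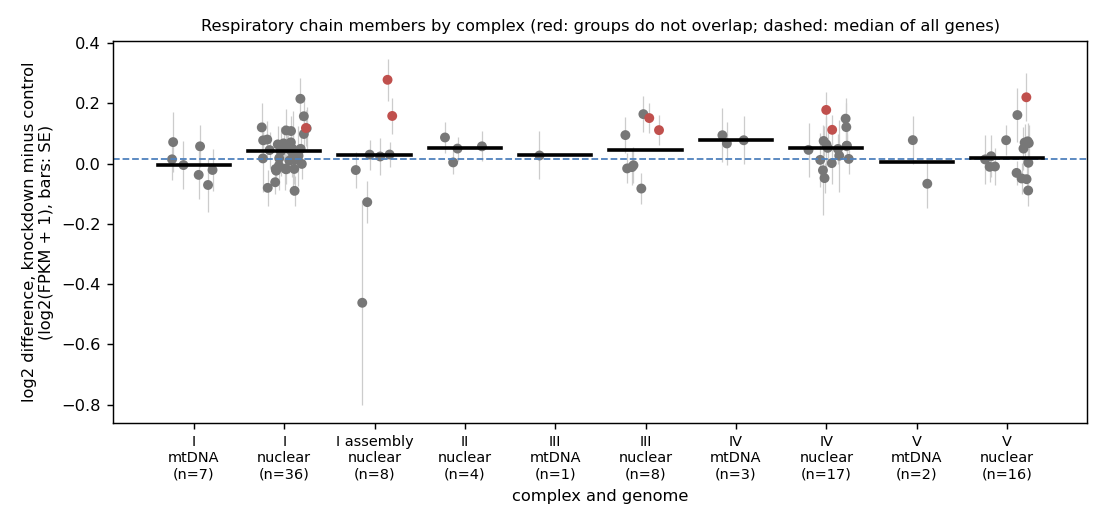
Log2 difference (knockdown minus control, log2(FPKM + 1)) of each of the 102 members, grouped by complex and by the genome that encodes it, with a line at each group's median. Points cluster just above 0 in most nuclear groups, from 0.019 in complex V to 0.053 in complex II, and the assembly factor Ndufaf4 stands alone at -0.46.

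Several libraries stood apart before any member was considered. Homer1, the postsynaptic scaffold gene named by the hairpin labels, had 18.9, 16.5, 16.6 and 19.3 FPKM in knockdown libraries, against 23.5, 26.3, 21.3 and 18.9 FPKM in control libraries, a log2 difference of -0.31 ± 0.10 (SE, adjusted p = 0.273 by limma). Knockdown library 4 overlapped control library 4 in that gene. It also had a summed olfactory bulb marker level of 31.3 FPKM, where knockdown libraries 1 to 3 had 5.23 to 5.38 FPKM and control libraries 4.51 to 4.99 FPKM. Its meningeal sum was 156 FPKM, where knockdown libraries 1 to 3 had 61.1 to 86.2 FPKM and control libraries 75.1 to 82.4 FPKM. Summed striatal projection neuron markers were 267, 457, 561 and 211 FPKM in knockdown libraries and 934, 584, 820 and 281 FPKM in control libraries, and all 18 of these genes had a negative log2 difference. Summed myelin markers were 699 to 1399 FPKM in knockdown libraries and 1032 to 1295 FPKM in control libraries, with 0 of 14 genes above 0 and a median log2 difference of -0.221. Summed astrocyte markers were 456 to 571 FPKM in knockdown libraries and 434 to 500 FPKM in control libraries, with 9 of 10 genes above 0. In such bulk tissue, fewer cells of a type and less RNA per cell cannot be told apart, and the part of these differences in the values below was not tested.

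The mitochondrial genome supplied most of the respiratory chain RNA in every library. The 13 mitochondrially encoded members summed to 28009, 27755, 29800 and 32566 FPKM in knockdown libraries, against 30516, 30295, 28096 and 26328 FPKM in control libraries. That is 12.7 to 14.5% of all summed FPKM in knockdown libraries and 12.2 to 14.2% in control libraries. The groups overlapped, with knockdown library 4 highest and control library 4 lowest of the 8.

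The 89 nuclear members summed to 4759, 4945, 4702 and 5230 FPKM in knockdown libraries, against 4597, 4791, 4647 and 4817 FPKM in control libraries. Knockdown library 4 was highest here too, while control library 4, lowest for the mitochondrial sum, had the highest nuclear sum among controls. The ratio of the mitochondrial to the nuclear sum was 5.89, 5.61, 6.34 and 6.23 in knockdown libraries (6.02 ± 0.332, SD, n = 4), against 6.64, 6.32, 6.05 and 5.47 in control libraries (6.12 ± 0.496, SD, n = 4). The difference of the means was smaller than either SD. With nuclear genes taken as the sum of their listed transcripts, the ratio was 3.92 ± 0.215 in knockdown libraries and 3.96 ± 0.337 in control libraries (SD, n = 4 each), because the gene value is spread over the union of all exons of a gene.

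**Figure D2:**
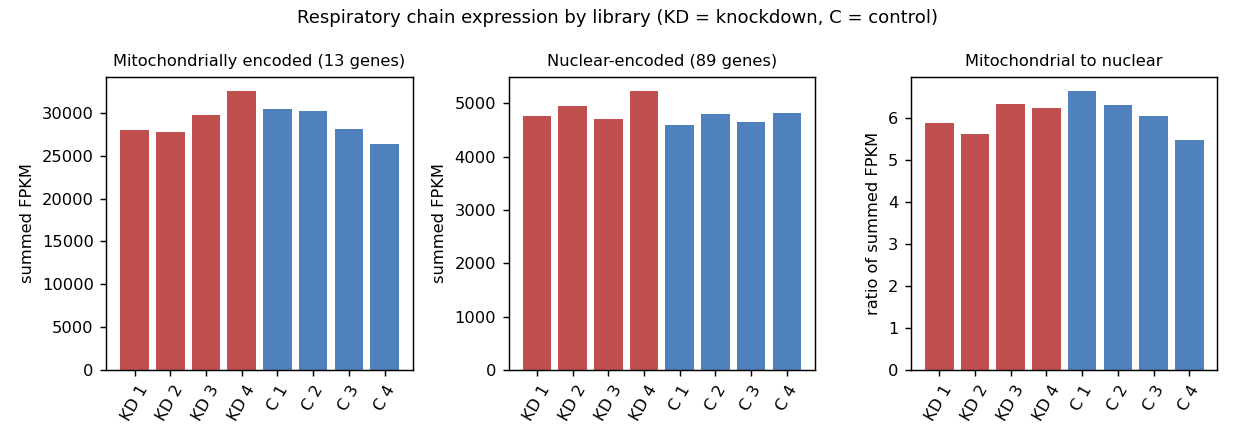
Summed FPKM of the mitochondrially encoded members, summed FPKM of the nuclear members and the ratio of the 2 sums, by library. Mitochondrial sums run from 26328 FPKM in control library 4 to 32566 FPKM in knockdown library 4, and the ratio runs from 5.47 to 6.64 with both groups intermixed.

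The 2 genomes varied on different scales between libraries. As a median deviation of each member's log2(FPKM + 1) from its own mean over the 8 libraries, the mitochondrial members ran from -0.068 to 0.168 in knockdown libraries and from -0.144 to 0.076 in control libraries. Nuclear members ran from -0.031 to 0.097 in knockdown libraries and from -0.047 to -0.006 in control libraries. In control libraries 1 and 2 and knockdown library 3 the mitochondrial members lay above their mean while the nuclear members lay below theirs. Knockdown library 2 showed the opposite arrangement, and knockdown library 4 was above the mean in both.

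**Figure D3:**
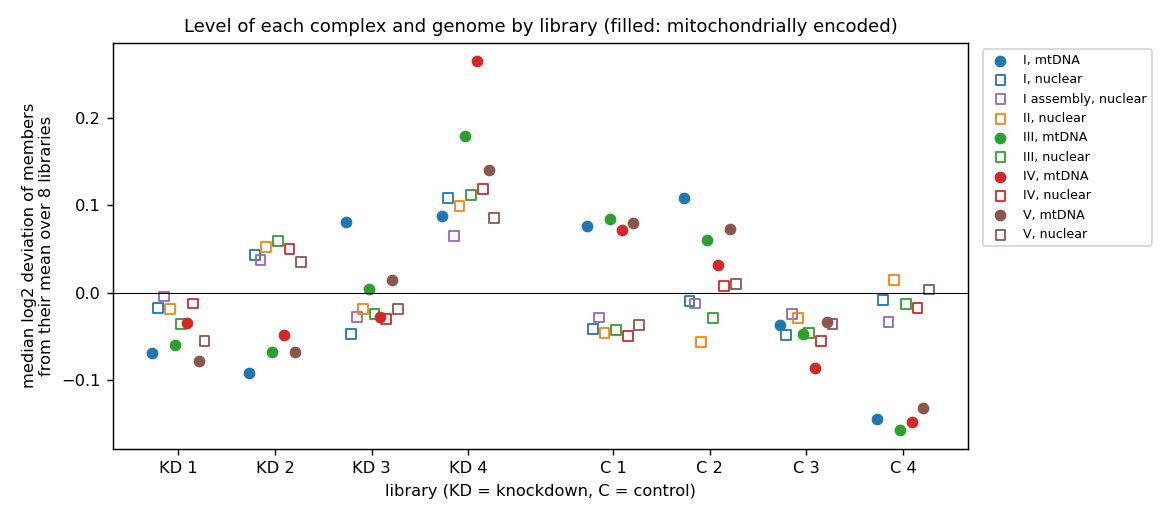
Median log2 deviation of the members of each complex and genome from their mean over the 8 libraries, by library. Mitochondrially encoded groups (filled circles) and nuclear groups (open squares) form separate bands in several libraries; complex IV of mitochondrial DNA reaches 0.265 in knockdown library 4, and the mitochondrial groups lie between -0.157 and -0.132 in control library 4.

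Complex I takes electrons from NADH, and 7 of its membrane subunits are mitochondrially encoded. Its most abundant transcript was mt-Nd1, which had 2971, 2997, 3183 and 3419 FPKM in knockdown libraries, against 3178, 3161, 2999 and 2746 FPKM in control libraries. The subunit gene mt-Nd2 had 2178, 2143, 2402 and 2621 FPKM in knockdown libraries, against 2491, 2516, 2243 and 2120 FPKM in control libraries. In both, knockdown library 4 was highest, control library 4 was lowest and the groups overlapped.
For mt-Nd4 the levels were 2049, 2045, 2274 and 2284 FPKM in knockdown libraries, against 2265, 2258, 2103 and 1945 FPKM in control libraries. Its overlapping neighbour mt-Nd4l had 919, 962, 1213 and 1019 FPKM in knockdown libraries, against 1099, 1162, 1072 and 972 FPKM in control libraries. Here knockdown library 3 held the highest mt-Nd4l value of all 8, whereas for mt-Nd4 knockdown libraries 3 and 4 were alike.
For mt-Nd5, knockdown libraries had 1584, 1562, 1804 and 1669 FPKM, against 1716, 1798, 1688 and 1515 FPKM in control libraries. For mt-Nd3, they had 941, 846, 864 and 1089 FPKM, against 1013, 905, 869 and 772 FPKM in control libraries. The 2 genes put knockdown libraries 3 and 4 in opposite order.
The only member read from the other strand, mt-Nd6, was also the lowest of the 13, with 125, 121, 136 and 117 FPKM in knockdown libraries against 143, 137, 122 and 112 FPKM in control libraries. Whether strand was used in counting is not given in the sources used here, so reads of mt-Nd6 and mt-Nd5 over their shared bases cannot be told apart. Log2 differences over these 7 genes ran from -0.07 to 0.07, with adjusted p of at least 0.71.

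The 36 nuclear subunits of complex I had log2 differences from -0.0905 for Ndufa1 to 0.215 for Ndufa2, with 26 above 0 (54.9% of all genes tested lay above 0). Ndufb9, the most abundant of them at the gene level and an accessory subunit of the membrane arm, had 108, 118, 107 and 117 FPKM in knockdown libraries, against 102, 103, 104 and 107 FPKM in control libraries. Only control library 4 reached the lowest knockdown library, and its log2 difference was 0.11 ± 0.05 (SE, adjusted p = 0.353).
Ndufa2, an accessory subunit of the matrix arm, had the smallest p among higher subunits, with 70.7, 71.3, 64.4 and 81.2 FPKM in knockdown libraries against 58.0, 62.3, 65.6 and 60.8 FPKM in control libraries. Knockdown library 3 fell within the control range, and the log2 difference was 0.215 ± 0.07 (SE, adjusted p = 0.289). Ndufs7, a core subunit that carries the last iron–sulfur cluster before ubiquinone, had 29.8, 31.3, 28.0 and 33.6 FPKM in knockdown libraries, against 26.7, 26.0, 27.5 and 29.4 FPKM in control libraries, with 1 control library inside the knockdown range (adjusted p = 0.333).
Ndufb7, a membrane-arm accessory subunit facing the intermembrane space, was the only subunit of complex I without overlap. It had 11.1, 11.3, 10.5 and 12.9 FPKM in knockdown libraries, against 10.4, 10.5, 10.4 and 10.5 FPKM in control libraries. The gap between the groups was only from 10.55 FPKM in the lowest knockdown library to 10.54 FPKM in the highest control library, and its adjusted p was 0.402. The gene lies at chr8:83566671-83571626 on the plus strand.
On the lower side the smallest p belonged to Ndufa1, a small membrane-arm accessory subunit. It had 92.9, 88.2, 98.0 and 94.0 FPKM in knockdown libraries, against 102, 104, 99.2 and 93.3 FPKM in control libraries, with control library 4 inside the knockdown range and an adjusted p of 0.441. By role, the 3 NADH-binding core subunits (Ndufv1, Ndufv2, Ndufs1) had a median log2 difference of -0.024. That of the 4 core subunits near the quinone site was 0.023, and that of the 29 accessory subunits 0.045. In the same order, the median merged exon lengths were 2634, 1948 and 1251 bases, so role and length cannot be told apart here.

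Assembly factors build complex I but are absent from the finished enzyme, and their mean gene levels were 3.44 to 16.6 FPKM, against 7.24 to 108 FPKM for the nuclear subunits. Ndufaf8, a partner of the assembly factor Ndufaf5 in human cells, had the smallest p of all members. It had 11.9, 10.7, 11.4 and 12.3 FPKM in knockdown libraries, against 9.01, 10.5, 9.71 and 8.41 FPKM in control libraries. The groups did not overlap, although knockdown library 2 and control library 2 lay close, and the log2 difference was 0.28 ± 0.07 (SE, adjusted p = 0.266). It lies at chr11:120098928-120100705 on the plus strand.
Ndufaf3, which acts early in building the matrix arm, had 12.4, 12.3, 12.1 and 13.4 FPKM in knockdown libraries, against 11.5, 10.8, 12.0 and 10.4 FPKM in control libraries. The groups were separate by a narrow margin, with a log2 difference of 0.16 ± 0.06 (SE, adjusted p = 0.298), at chr9:108565537-108567434 on the minus strand. Ndufaf1, a factor for the membrane arm, was lower on average with overlap, at 12.0, 11.3, 11.8 and 10.6 FPKM in knockdown libraries against 13.4, 11.8, 13.7 and 11.7 FPKM in control libraries (adjusted p = 0.408).
The most abundant assembly factor, Ndufaf7, a mitochondrial protein methyltransferase, had 16.4, 16.6, 16.1 and 17.8 FPKM in knockdown libraries and 16.4, 16.2, 16.7 and 16.2 FPKM in control libraries. Its groups overlapped almost fully. The most negative difference, -0.46 for Ndufaf4, came with 3.78, 3.42, 3.65 and 2.50 FPKM in knockdown libraries and 3.03, 3.88, 3.80 and 12.1 FPKM in control libraries, where control library 4 lay far above all others.

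Complex II, succinate dehydrogenase, links the tricarboxylic acid cycle to the chain. All 4 of its subunits had a log2 difference above 0 with overlapping groups (54.9% of all genes tested lay above 0). Sdha, the flavoprotein, had 82.4, 86.2, 85.2 and 80.9 FPKM in knockdown libraries, against 80.1, 84.5, 84.5 and 84.8 FPKM in control libraries. Sdhb, which holds the iron–sulfur clusters, had 38.3, 41.1, 38.5 and 43.0 FPKM in knockdown libraries, against 38.5, 37.5, 37.6 and 40.7 FPKM in control libraries. For both, the group ranges overlapped.
Of the membrane anchors, Sdhc had 19.6, 21.0, 19.6 and 21.7 FPKM in knockdown libraries, against 19.4, 18.9, 18.7 and 19.8 FPKM in control libraries. Sdhd had 51.5, 53.1, 50.9 and 54.3 FPKM in knockdown libraries, against 49.2, 49.8, 51.7 and 51.9 FPKM in control libraries. Sdhc overlapped only at control library 4, and the smallest adjusted p of the complex was 0.442.

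Complex III passes electrons from ubiquinol to cytochrome c. Its catalytic cytochrome b, mt-Cytb, had 3092, 3073, 3229 and 3650 FPKM in knockdown libraries, against 3416, 3361, 3118 and 2890 FPKM in control libraries. Knockdown library 4 and control library 4 were again the extremes, and the adjusted p was 0.883.
Among the 8 nuclear subunits, the 3 largest positive differences belonged to small ones. Uqcr10 had 112, 120, 115 and 132 FPKM in knockdown libraries, against 99.7, 107, 107 and 113 FPKM in control libraries, and only control library 4 reached the knockdown range (adjusted p = 0.315). Uqcrq, which sits beside cytochrome b, had 35.5, 35.2, 33.8 and 38.7 FPKM in knockdown libraries, against 30.9, 33.2, 31.6 and 32.7 FPKM in control libraries. Its groups did not overlap, and its log2 difference was 0.15 ± 0.05 (SE, adjusted p = 0.291), at chr11:53427922-53430831 on the minus strand.
Uqcr11 had 84.7, 93.0, 87.0 and 97.6 FPKM in knockdown libraries, against 83.7, 83.9, 83.2 and 83.8 FPKM in control libraries. Control libraries were within 1 FPKM of each other, and the lowest knockdown library stood at 84.71 FPKM against 83.95 FPKM in the highest control library. Its log2 difference of 0.11 (adjusted p = 0.37) became -0.0204 when GC content and length trends were removed. The gene lies at chr10:80402997-80406830 on the minus strand.
Uqcrc2, a large core protein, had the smallest p on the lower side, with 63.2, 69.3, 67.1 and 60.7 FPKM in knockdown libraries against 67.1, 67.9, 67.6 and 73.1 FPKM in control libraries. Its groups overlapped (adjusted p = 0.505). The 5 small subunits had a median log2 difference of 0.111, with 3 above 0 and 2 below. The 2 core proteins lay on opposite sides, Uqcrc1 at 0.0945 and Uqcrc2 at -0.0829, with a median of 0.006. Median merged exon length was 876 bases for the small subunits and 3344 bases for the core proteins, so role and length cannot be told apart here.

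Complex IV reduces oxygen at metal centres held by mitochondrially encoded subunits. The most abundant member of all, mt-Co1, had 4955, 4871, 5251 and 5730 FPKM in knockdown libraries, against 5174, 5210, 4779 and 4685 FPKM in control libraries. The copper-binding subunit mt-Co2 had 2337, 2331, 2362 and 2905 FPKM in knockdown libraries, against 2541, 2395, 2280 and 2172 FPKM in control libraries. The mt-Co3 level was 2114, 2031, 2045 and 2524 FPKM in knockdown libraries, against 2208, 2147, 1951 and 1847 FPKM in control libraries. In all 3, the first 3 knockdown libraries lay inside the control range or close to it and knockdown library 4 lay above all others, with log2 differences from 0.07 to 0.09 and adjusted p of at least 0.633.

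Of 17 nuclear complex IV members, 15 had a log2 difference above 0, where 54.9% of all genes tested did. Their median merged exon length was 1108 bases, and 76.8% of all genes up to 1217 bases lay above 0. Some of the 15 were close to 0, such as Cox7a1 at 0.00146. Cox8a, a small membrane-spanning subunit and the nuclear member with the highest gene level in the whole chain, had 336, 346, 336 and 381 FPKM in knockdown libraries, against 281, 325, 306 and 323 FPKM in control libraries. The groups did not overlap, and the log2 difference was 0.18 ± 0.06 (SE, adjusted p = 0.298), at chr19:7215158-7217616 on the minus strand.
Cox5b, which covers the matrix face of the enzyme, had 79.9, 82.9, 81.1 and 89.5 FPKM in knockdown libraries, against 76.6, 75.4, 77.5 and 78.6 FPKM in control libraries. It too separated the groups, with a log2 difference of 0.11 ± 0.05 (SE, adjusted p = 0.337), at chr1:36691484-36693681 on the plus strand. Among nuclear complex IV members, Cox7b had the smallest p on the lower side. It had 81.8, 85.0, 76.7 and 85.2 FPKM in knockdown libraries against 85.0, 86.0, 80.3 and 88.6 FPKM in control libraries, and its groups overlapped (adjusted p = 0.679).

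Several complex IV subunits exist as paralogs with known tissue preferences, and the ubiquitous form made up nearly all of each pair in both groups. Cox4i2, known from lung and from low oxygen, supplied 0.969 to 1.39% of the Cox4i sum in knockdown libraries and 1.08 to 1.40% in control libraries. Cox6a2, the heart and muscle form, supplied 2.26 to 3.21% in knockdown libraries and 2.81 to 2.85% in control libraries. The muscle form Cox7a1 supplied 1.44 to 1.76% of the sum of Cox7a1 and Cox7a2 in knockdown libraries and 1.35 to 1.68% in control libraries. In each of these pairs the range of shares in one group overlapped that of the other.
The testis form Cox6b2 supplied 0.368 to 0.474% of its pair in knockdown libraries and 0.250 to 0.524% in control libraries. Ndufa4l2, which is induced by low oxygen, supplied 1.48 to 2.63% of the sum with Ndufa4 in knockdown libraries and 1.92 to 2.42% in control libraries. These shares compare gene values per length of merged exons, so they depend on the length of each gene model.

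Complex V turns the proton flow into ATP. The gene mt-Atp6, for the membrane subunit beside the rotating ring, had 2600, 2593, 2472 and 3113 FPKM in knockdown libraries, against 2731, 2647, 2443 and 2367 FPKM in control libraries. Its overlapping upstream partner mt-Atp8 had 2143, 2181, 2565 and 2427 FPKM in knockdown libraries, against 2541, 2597, 2430 and 2186 FPKM in control libraries. The 2 genes lie on the same precursor and share the 43 bases shown above, yet knockdown library 3 was the lowest knockdown library for mt-Atp6 and the highest for mt-Atp8.
The neighbouring genes mt-Co2 and mt-Atp8 also varied in proportion, with a ratio of mt-Co2 to mt-Atp8 of 1.09, 1.07, 0.921 and 1.20 in knockdown libraries, against 1.00, 0.922, 0.939 and 0.994 in control libraries. Knockdown libraries 1, 2 and 4 lay above every control library, and knockdown library 3 was level with the lowest control library. This ratio was not among the planned comparisons, and ratios of other pairs of mitochondrial genes are not given beside it. It also rests on mt-Atp8, a gene of only 204 bases that shares 43 of them with mt-Atp6.

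The 16 nuclear members of complex V had a median log2 difference of 0.019, the lowest of the nuclear subunit groups. Of these, 10 lay above 0 (54.9% of all genes tested). The catalytic F1 subunits were the most abundant, and Atp5b had 156, 173, 161 and 164 FPKM in knockdown libraries, against 161, 169, 168 and 179 FPKM in control libraries. Its groups overlapped, with a log2 difference of -0.05 ± 0.05 (SE, adjusted p = 0.651).
Atp5e, the epsilon subunit of the central stalk, had 32.3, 32.7, 32.8 and 40.6 FPKM in knockdown libraries, against 27.5, 31.4, 30.3 and 28.6 FPKM in control libraries. Its groups did not overlap, and the log2 difference was 0.22 ± 0.08 (SE, adjusted p = 0.303), at chr2:174461072-174464105 on the minus strand. Atp5f1, the b subunit of the peripheral stalk, had 38.6, 41.0, 37.5 and 39.2 FPKM in knockdown libraries, against 39.3, 42.0, 41.6 and 43.6 FPKM in control libraries, and overlapped (adjusted p = 0.421).
The c ring is encoded by 3 genes, Atp5g1, Atp5g2 and Atp5g3, that yield the same mature protein. Atp5g3 made up 60.7 ± 1.56% of their summed gene level in knockdown libraries and 60.2 ± 0.767% in control libraries. Atp5g2 made up 24.9 ± 2.31% in knockdown libraries and 24.9 ± 0.978% in control libraries. Atp5g1 made up 14.5 ± 0.958% in knockdown libraries and 14.9 ± 0.898% in control libraries (SD, n = 4 each). None of the 3 shares differed by more than the SD of either group. How any reads shared between these genes were divided is not given in the sources used here.

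**Figure D4:**
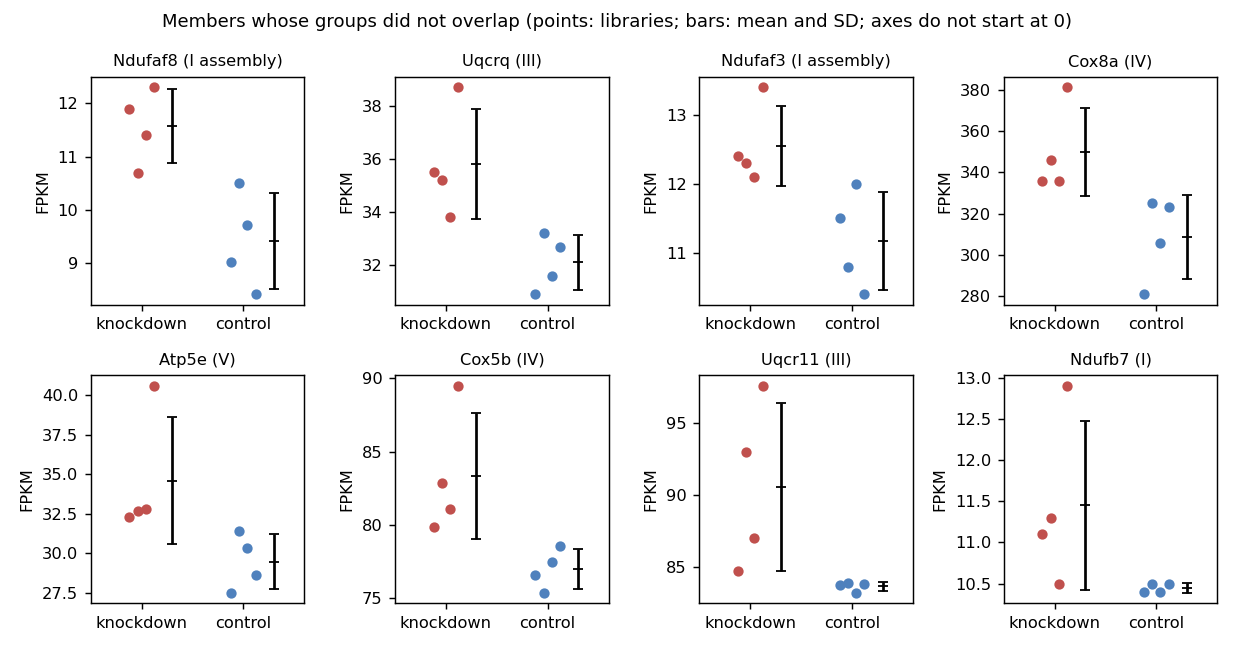
FPKM in each of the 8 libraries for the 8 members whose knockdown libraries all lie above all control libraries, knockdown left of control in each panel. Margins are narrow in Ndufb7 (10.55 against 10.54 FPKM) and wider in Cox8a (335.7 FPKM in the lowest knockdown library against 325.2 FPKM in the highest control library).

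Median differences were larger among members with short gene models than among those with long ones, a description with no test. The 30 nuclear members with 419 to 1217 bases of merged exons had a median log2 difference of 0.068, and 26 of them lay above 0. The 30 of 1231 to 2147 bases had a median of 0.049 with 22 above 0, and the 29 of 2178 to 8086 bases a median of 0.004 with 16 above 0. The same order held over all genes with a length. The median was 0.098 with 76.8% above 0 in genes up to 1217 bases (n = 514), 0.070 with 71.1% above 0 in longer genes up to 2147 bases (n = 1407), and 0.005 with 51.9% above 0 in genes beyond that (n = 11071). The short nuclear members therefore lay below the median of all short genes. In knockdown library 4 the short members had a median deviation of 0.142 from their mean, against -0.020 to 0.042 in the other knockdown libraries and -0.056 to -0.016 in control libraries. That library was also highest for middle members (0.096) and long members (0.080), and all short genes had a median deviation of 0.134 there.

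**Figure D5:**
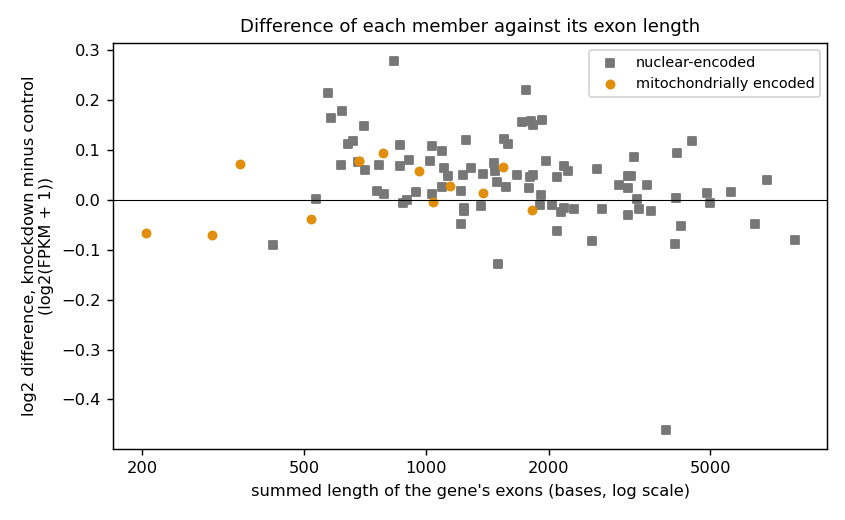
Log2 difference (knockdown minus control) of each member against the length of its merged exons in bases on a log axis. Short members lie mostly above 0 (26 of 30 nuclear members under 1217 bases or at that length), and long ones lie on both sides (16 of 29 above 0).

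The transcript table gave 183 transcripts of these genes, and 179 were tested among 23415. At an adjusted p under 0.05 by limma, 0 were called (0.0256% of all transcripts), and the lowest adjusted p was 0.565. At an unadjusted p under 0.05, 15 of the 179 were higher in knockdown libraries and 0 lower, where 4.2% of all transcripts were higher, 3.76% lower and 7.96% either. In 11 of the 179 the groups did not overlap on the higher side and in 0 on the lower side (3.04% and 2.66% of all transcripts). Both shares on the higher side were above those of all transcripts. The 15 include a transcript of each of the 9 genes higher at the gene level, so the gene and transcript counts are not independent. At the gene level the share of higher members was near that of all genes (8.82% against 9.1%). Differences in length and level between member transcripts and all transcripts were not taken into account. Without knockdown library 3 the number past unadjusted p in either direction was 24, and with a striatal marker score as a covariate it was 5. The share over all transcripts is not given for these fits.
Some transcripts separated the groups where the gene did not. How reads were divided between the transcripts of a gene is not given in the sources used here, and its part in these values was not tested. The first example, Atp5j-205, was the transcript with the smallest p of the 179. Atp5j-205, a short transcript of the gene for the F6 subunit of the peripheral stalk, had 13.3, 10.6, 9.39 and 15.4 FPKM in knockdown libraries, against 8.62, 8.16, 8.22 and 8.05 FPKM in control libraries (log2 difference 0.49 ± 0.14, SE, adjusted p = 0.565). The gene value of Atp5j overlapped between groups, at 20.3, 24.6, 23.5 and 24.9 FPKM in knockdown libraries against 23.1, 21.6, 24.0 and 22.7 FPKM in control libraries. Cox4i1-201, the main transcript of the ubiquitous Cox4 form, had 247, 263, 256 and 280 FPKM in knockdown libraries, against 227, 243, 237 and 237 FPKM in control libraries, while the gene value overlapped.
The gene and transcript scales differ because a gene value is divided by the merged length of all its exons. Atp5l averaged 12.5 FPKM as a gene and 133 FPKM as the sum of its listed transcripts, and gene values were a median of 0.726 times the summed transcripts over nuclear members. Cox8a and the mitochondrial genes had a ratio of 1.0.

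Of the genes that serve the chain from outside its name list, none passed an adjusted p under 0.05. Counts at unadjusted p under 0.05 in the lists that follow stand against 9.1% of all genes higher and 5.07% lower. Among 19 electron carrier and coenzyme Q genes, 1 was higher and 0 lower (all genes 9.1% and 5.07%). That gene was Coq8b, a kinase-like protein of coenzyme Q synthesis, with 3.20, 2.92, 2.94 and 2.97 FPKM in knockdown libraries against 2.09, 2.03, 2.48 and 2.65 FPKM in control libraries, a log2 difference of 0.28 ± 0.07 (SE, adjusted p = 0.266). Coq3, a methyltransferase of the same route, had a log2 difference of 0.12 (adjusted p = 0.358).
Of 40 tested assembly factors with other names, 3 were higher and 3 lower (all genes 9.1% and 5.07%). Cox16, a complex IV assembly factor, had 3.01, 2.78, 2.19 and 2.83 FPKM in knockdown libraries, against 3.35, 3.39, 3.31 and 3.42 FPKM in control libraries, with no overlap (log2 difference -0.24, adjusted p = 0.266). Atpaf1, a chaperone of the F1 head, had a log2 difference of -0.17 (adjusted p = 0.274).
Among 31 genes of mitochondrial DNA maintenance, transcription and RNA processing, 1 was higher and 2 lower (all genes 9.1% and 5.07%). Mterf2, of the mitochondrial transcription termination factor family, had 5.53, 6.65, 6.35 and 5.43 FPKM in knockdown libraries, against 7.06, 7.19, 7.26 and 6.74 FPKM in control libraries, with no overlap (log2 difference -0.21, adjusted p = 0.274). Top1mt, the mitochondrial topoisomerase, had a log2 difference of 0.20 (adjusted p = 0.3).
Of 13 tested nuclear regulators, 0 were higher and 2 lower (all genes 9.1% and 5.07%). Esrrg, an orphan nuclear receptor that activates respiratory genes, had 4.90, 4.32, 3.99 and 4.12 FPKM in knockdown libraries, against 5.42, 5.02, 5.06 and 5.34 FPKM in control libraries (log2 difference -0.22 ± 0.06, SE, adjusted p = 0.266). Its coactivator Ppargc1b had 2.25, 1.99, 2.21 and 1.88 FPKM in knockdown libraries, against 3.06, 2.28, 2.42 and 2.38 FPKM in control libraries (adjusted p = 0.337). In neither did the groups overlap.
Among 21 tricarboxylic acid cycle and pyruvate entry genes, 1 was higher and 2 lower (all genes 9.1% and 5.07%). Sucla2, a subunit of ATP-forming succinyl-CoA ligase, had 29.1, 26.6, 27.8 and 27.6 FPKM in knockdown libraries, against 30.8, 30.7, 31.2 and 32.5 FPKM in control libraries (log2 difference -0.17 ± 0.04, SE, adjusted p = 0.266). Dld, the dehydrogenase shared by the pyruvate and oxoglutarate complexes, had 33.3, 32.9, 33.0 and 32.2 FPKM in knockdown libraries, against 36.4, 36.0, 35.0 and 37.1 FPKM in control libraries (log2 difference -0.13 ± 0.04, SE, adjusted p = 0.266). In both, all knockdown libraries lay below all control libraries, as in 3.22% of all genes.
Of 14 carriers, porins and import receptors, 0 were higher and 3 lower (all genes 9.1% and 5.07%). Slc25a5, an ADP/ATP carrier, had a log2 difference of -0.13 without overlap (adjusted p = 0.317), and Timm23, of the inner membrane import channel, one of -0.15 (adjusted p = 0.325).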

How the data were processed

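RNA of orbital frontal cortex was sequenced in 8 libraries, 4 knockdown and 4 control, made from total RNA with a stranded kit, per the labels' protocols; how ribosomal RNA was avoided is not given in the sources used here. The authors deposited gene and transcript tables in FPKM, per the file headers. The submitters' processing notes list HISAT2 and StringTie, with cutadapt and FastQC, but give no versions. Of 13130 gene identifiers, 87.7% were in GENCODE M21 with identical coordinates, so coordinates are on GRCm38. In 400 genes with several transcripts, all listed, 100.0% of gene values equalled the length-weighted transcripts over the merged exon length within 1%; where not all transcripts are listed the gene value is at or above that figure, and over all 11291 genes compared 31.6% were within 1%. Depth is unknown, since FPKM carries no counts.

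Genes with a mean of at least 0.5 FPKM were tested on log2(FPKM + 1) with limma 3.58.1 (R 4.3.3; empirical Bayes, trend and robust, two-sided, no block), with Benjamini-Hochberg adjustment over all 13004 genes (threshold 0.05), after a check on simulated data. A fold on this scale understates changes of low genes. Named genes were the mitochondrial members, Sdha to Sdhd, the most abundant nuclear member and the smallest p in each direction per complex (mean of at least 1 FPKM), members without overlap, paralogs and the 2 smallest p of each pathway list; further genes, such as Ndufs7, Ndufaf4, Uqcr10, Atp5j and Cox4i1, were named after their values were seen. Members and lists were chosen with earlier results of these data known. The ratio of mt-Co2 to mt-Atp8 was not among the planned comparisons. Alternatives were other pseudocounts, filters, scalings, a replicate block, a striatal score, GC and length trends, and leaving out each library. Promoter windows were searched for the motif letters as printed; longer forms of the NRF1 and YY1 motifs, searched earlier, matched fewer windows of members and of all genes. The values of 1 member entered the sums, medians and counts of members, but are not reported here on their own and were left out of the search for libraries that stand apart.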

Additional observations from a re-analysis of the deposited data

Results flagged for a closer look

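In groups of 4 libraries, 15 values stood apart from the other 3 of their group by Dixon's criterion. Chance alone flags about 1 in 20 groups, and 208 groups were examined. Knockdown library 4 held 7 of the 15.

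In knockdown library 4, mt-Co2 was 2910 FPKM, where knockdown libraries 1 to 3 had 2330 to 2360 FPKM, and mt-Co3 was 2520 FPKM (others 2030 to 2110). In the same library Atp5e was 40.6 FPKM (others 32.3 to 32.8), Atp5l 13.3 FPKM (others 11.8 to 12.1), Uqcrh 80.6 FPKM (others 73.4 to 74.0), Ndufb3 77.9 FPKM (others 69.7 to 70.4) and Ndufab1 8.44 FPKM (others 6.95 to 7.08). This is the library with the high olfactory bulb and meningeal marker sums, and the part of those markers in these values was not tested.

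Other knockdown values that stood apart were Ndufa10 at 32.9 FPKM in knockdown library 3 (others 35.5 to 35.8) and Atp5c1 at 65.1 FPKM in knockdown library 1 (others 71.3 to 72.6).

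In control library 4, Ndufaf4 was 12.1 FPKM, against 3.03 to 3.88 FPKM in the other control libraries. Ndufab1 in that library was 8.08 FPKM (others 6.70 to 6.88) and Uqcrc2 73.1 FPKM (others 67.1 to 67.9). In control library 1, Sdha was 80.1 FPKM (others 84.5 to 84.8) and Ndufs3 37.9 FPKM (others 36.4 to 36.6). In control library 3, Ndufs8 was 42.4 FPKM (others 45.4 to 45.7).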

How the results depend on the processing

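No alternative that kept all 8 libraries called a gene at adjusted p under 0.05, and leaving out 1 library called 0 to 2 genes. Over all genes, the number at unadjusted p under 0.05 in either direction (1842 as reported) ran from 1199 to 2174 without 1 library. Under the other alternatives, which include filters that change the number of genes tested, it ran from 1010 to 1853. Members higher at unadjusted p under 0.05 (9 as reported) numbered 5 with GC content and length trends removed, 2 with the striatal marker score, and 4 to 15 without 1 library. Lower members (0 as reported) numbered 3 under quantile normalization, 1 after rescaling to equal summed FPKM, 1 after rescaling over nuclear-encoded genes, and 0 to 2 without 1 library. Members without overlap on the higher side (8 as reported) numbered 5 under median-of-ratios rescaling, 3 with GC content and length trends removed, and 8 to 19 without 1 library. On the lower side they numbered 3 under quantile normalization and 0 to 4 without 1 library. Leaving out a library can only keep or raise a number without overlap. Member transcripts past unadjusted p (15 as reported) numbered 8 without trend and robust settings, 5 with the striatal score, and 10 to 24 without 1 library. Uqcr11 turned to -0.0204 with GC content and length trends removed. The cause of these shifts was not tested. For each alternative, the share over all genes or all transcripts is not given beside the member count. The member counts therefore cannot show a shift of members apart from one of all genes. The striatal score partly follows the groups, so counts with it cannot separate striatal content from group. Median differences of each complex and the ratio of genomes also moved, and they were not set against the spread between libraries for each alternative. The median of nuclear complex III, 0.044 as reported, ran from -0.001 to 0.08. That of mitochondrial complex I, -0.005 as reported, ran from -0.052 to 0.056. The log2 ratio of genomes, -0.022 as reported, ran from -0.075 to 0.053.

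Correlations of the deviations of same-numbered libraries were -0.185, -0.072, 0.2 and -0.017 for numbers 1 to 4. That of number 3 was the highest of all pairs of a knockdown and a control library, which ran from -0.217 to 0.2. Of the knockdown libraries, only number 3 correlated best with its own number. Knockdown libraries 1, 2 and 4 each correlated better with a control library of another number. These correlations cannot show whether libraries were paired by design, which is not given in the sources used here. With the number as a replicate block, 8 members were higher and 1 lower at unadjusted p under 0.05, and the share over all genes is not given for this fit. Depth is unknown in FPKM, so counting error could not be separated from the spread between libraries.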

Other observations

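Some transcripts switched between levels irrespective of group. Cox6c-203, a transcript of a complex IV subunit gene, had 1.13, 41.1, 1.12 and 53.9 FPKM in knockdown libraries, against 1.67, 41.1, 42.7 and 50.8 FPKM in control libraries, a spread of 47.9-fold over the 8. The gene value of Cox6c was 20.7, 26.7, 25.0 and 32.5 FPKM in knockdown libraries and 21.1, 28.4, 25.9 and 30.9 FPKM in control libraries. Pet117, a complex IV assembly factor gene, was at 4.74 FPKM in knockdown library 4 and at most 0.000381 FPKM in the other 7 libraries.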
